A study of Homo sapiens with 4 samples.

Results

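Interferon-stimulated genes were followed through 4 arrays in which the RNA-editing enzyme ADAR had been lowered or not. The 41 genes were chosen by name, as members of the program that cells switch on after sensing interferon. Of these, 35 had a transcript cluster annotated to them alone, among 14232 such genes on the arrays; a transcript cluster is the set of probes that the array assigns to a transcribed locus. IFITM2 and IFITM3 shared their clusters with each other, USP18 with USP41P, GBP1 with GBP3 and GBP2 with GBP7, so these 5 genes were given no value, and STAT2 was not analysed here.

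The groups were K562 cells with an siRNA against ADAR1 (ADARkd), K562 cells with a scrambled siRNA (SCR), cells labelled HepG2 with the siRNA against ADAR1, and cells labelled HepG2 with the scrambled siRNA, with 1 array each. K562 is a chronic myeloid leukaemia line and HepG2 a hepatocellular carcinoma line. In all groups a plasmid carrying the siRNA had been introduced stably, and the ADAR siRNA had been picked among several for its reduction of ADAR; the sources used here do not say whether clones or mixed populations were used. No group received interferon by the labels. The lines also differed in medium, DMEM for HepG2 and RPMI for K562. The values are deposited linear intensities, given here on the log2 scale. With 1 array per group, differences between arms inside a line lack any replicate and carry no p-value.

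The level of a gene was set against the median of all genes, 5.28 in K562 and 5.31 on the arrays labelled HepG2 (log2, over the mean of a line's 2 arrays); a gene at or above it is called kept in that line. The targeted transcript ADAR stood at 6.78 in ADARkd and 7.99 in SCR in K562, and at 7.27 in ADARkd and 8.96 in SCR on the arrays labelled HepG2. Among erythroid markers, 8 of the 10 measured reached that level in K562, and 0 did so on the other arrays. Of 20 measured hepatocyte markers 3 were kept in K562 and 2 on the arrays labelled HepG2. Those 2 were CPS1, at 10.56 in ADARkd and 10.89 in SCR against 3.29 and 3.21 in K562, and FOXA1, also kept in K562. Albumin (ALB) stood at 2.97 in ADARkd and 3.04 in SCR on the arrays labelled HepG2. The label is thus not borne out by most of the listed markers, and the arrays are called labelled HepG2. Of 12 fibroblast and stromal markers, 1 was kept in K562 and 7 on the arrays labelled HepG2, and of 12 lymphocyte and plasmacytoid dendritic markers 1 (TCF4) and 0.

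Type I and type III interferons bind receptors whose Janus kinases start a signal to the nucleus. There IRF9 takes part in binding the interferon-stimulated response element (ISRE) in the promoters of the induced genes. Their products block viral entry, translation, replication and budding, and some detect double-stranded RNA. ADAR deaminates adenosine in double-stranded RNA, which in several human and mouse cell types keeps endogenous RNA from being detected by the sensor MDA5 and from setting off interferon production. ADAR is itself induced by interferon through an alternative promoter.

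The ISRE is shown first, as the element that many induced genes share. In RefSeq promoter windows of GRCh38.p14, from 250 bases before to 50 after each annotated start, the ISRE was searched as GAAANNGAAA on both strands. The motif was present in 24 of the 34 named genes that had a window, against 4.38% of the 27305 genes in the table, and in 22 of the 31 measured ones. The gamma-activated site, searched as TTCNNNGAA, which reads the same on both strands, was in 10 of 34, against 9.38% of genes. Matches of the 2 motifs overlapped in 8 pairs, counted window by window, so a site lying in several windows of a gene was counted repeatedly. Examples of the ISRE follow, read 5′ to 3′ on the gene's strand with 10 flanking bases and the motif in capitals. They come from genes whose levels were far apart between the lines (IFIT1, IFIT3, IFIT5, DTX3L, BST2) and from genes dim on all arrays (MX1, RSAD2, IFI44L).
IFIT1 at chr10:89392520-89392529, gene on the plus strand: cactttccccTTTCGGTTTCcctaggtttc
IFIT3 at chr10:89332478-89332487, gene on the plus strand: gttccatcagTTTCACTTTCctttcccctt
IFIT5 at chr10:89414564-89414573, gene on the plus strand: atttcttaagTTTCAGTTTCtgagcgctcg
DTX3L at chr3:122564332-122564341, gene on the plus strand: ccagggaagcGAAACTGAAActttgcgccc
BST2 at chr19:17405745-17405754, gene on the minus strand: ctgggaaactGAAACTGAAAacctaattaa
MX1 at chr21:41420569-41420578, gene on the plus strand: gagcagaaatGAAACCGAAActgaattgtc
RSAD2 at chr2:6877632-6877641, gene on the plus strand: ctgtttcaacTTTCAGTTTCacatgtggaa
IFI44L at chr1:78620375-78620384, gene on the plus strand: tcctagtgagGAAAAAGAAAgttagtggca

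Distances from the start of transcription differed: the RSAD2 match began 145 bases before it, the IFIT5 match began 4 bases before it, that of DTX3L 6 before it, and that of MX1 11 bases after it. Among measured members the farthest match upstream began 196 bases before a start, of MX1, and the farthest downstream 23 bases after one, of TRIM21. Members with and without the motif were found among the kept genes. Of the 22 measured members that held it, 5 were kept in K562 and 14 on the arrays labelled HepG2. Of the 9 that had a window without it, among them IRF9, TRIM25 and XAF1, 3 and 4 were kept. A match is a run of letters and was not shown here to be bound. Lack of a match to this fixed pattern in these windows does not show that a gene lacks the element.

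**Figure D1:**
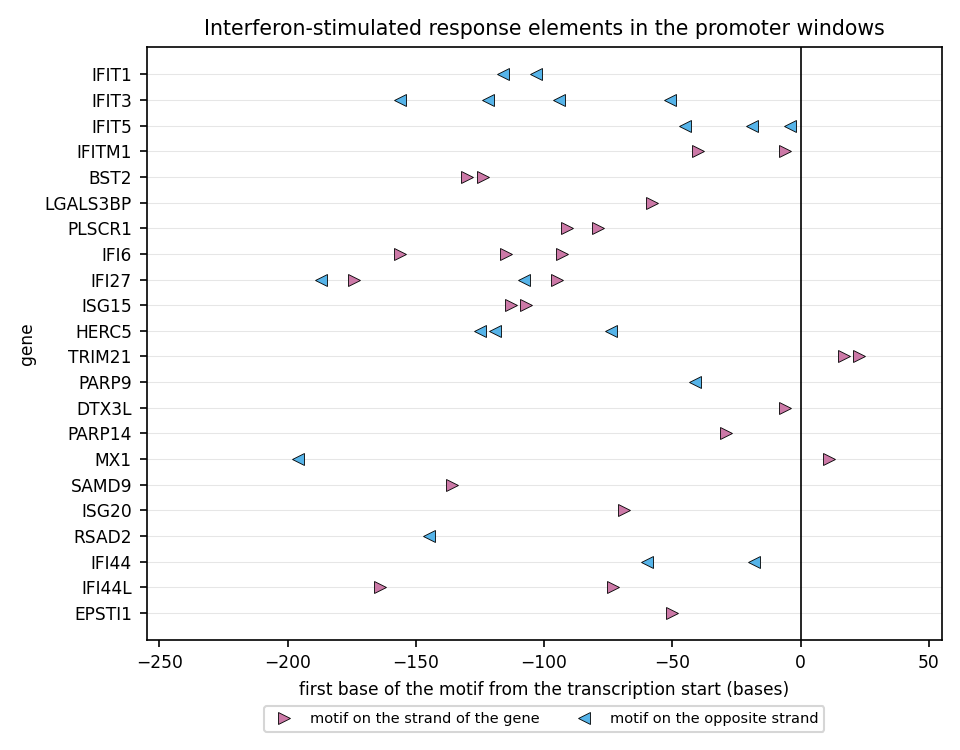
Position of each ISRE match (first base, in bases from the annotated start of transcription at 0) in the promoter windows of the 22 measured members that held one; arrowheads give the strand of the motif, and genes with several annotated starts have matches from each window. Most matches lie before the start, and TRIM21 and MX1 have matches just after it.

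The first comparison was between the lines, which asks how much of the program each background expressed. Much of it was lower in K562. By limma with line and arm as terms over all 14232 genes, 15 of 35 members (42.9%) were called lower in K562 at a Benjamini-Hochberg adjusted p under 0.05 and at least 2-fold, against 9.26% of all genes. A single member, TRIM22, was called higher in K562 (2.86%), against 6.84% of all genes. The median of K562 minus labelled HepG2 was -0.67 over the members and 0.20 over all genes. For 14 of the 15 the K562 level lay under the filter level; background may make up much of such a value, and the fold is then uncertain. Over the 6 members kept in both lines (IFI6, IFITM1, ISG15, XAF1, TRIM25 and PLSCR1) the median was 0.0344. With an offset of 16 added to the intensities 8 members were called lower and 0 higher. Calls over all 14232 genes, in either direction, fell from 2291 to 1598 with that offset. PARP9, DTX3L, PARP14, HERC5, HERC6, IFI35, IFI44 and TRIM22 lost their calls with it. Each line has an ADARkd and an SCR array that no label calls separate cultures, so errors and p-values rest on 1 residual degree of freedom and on a spread borrowed across genes. Lines and media cannot be told apart.

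**Figure D2:**
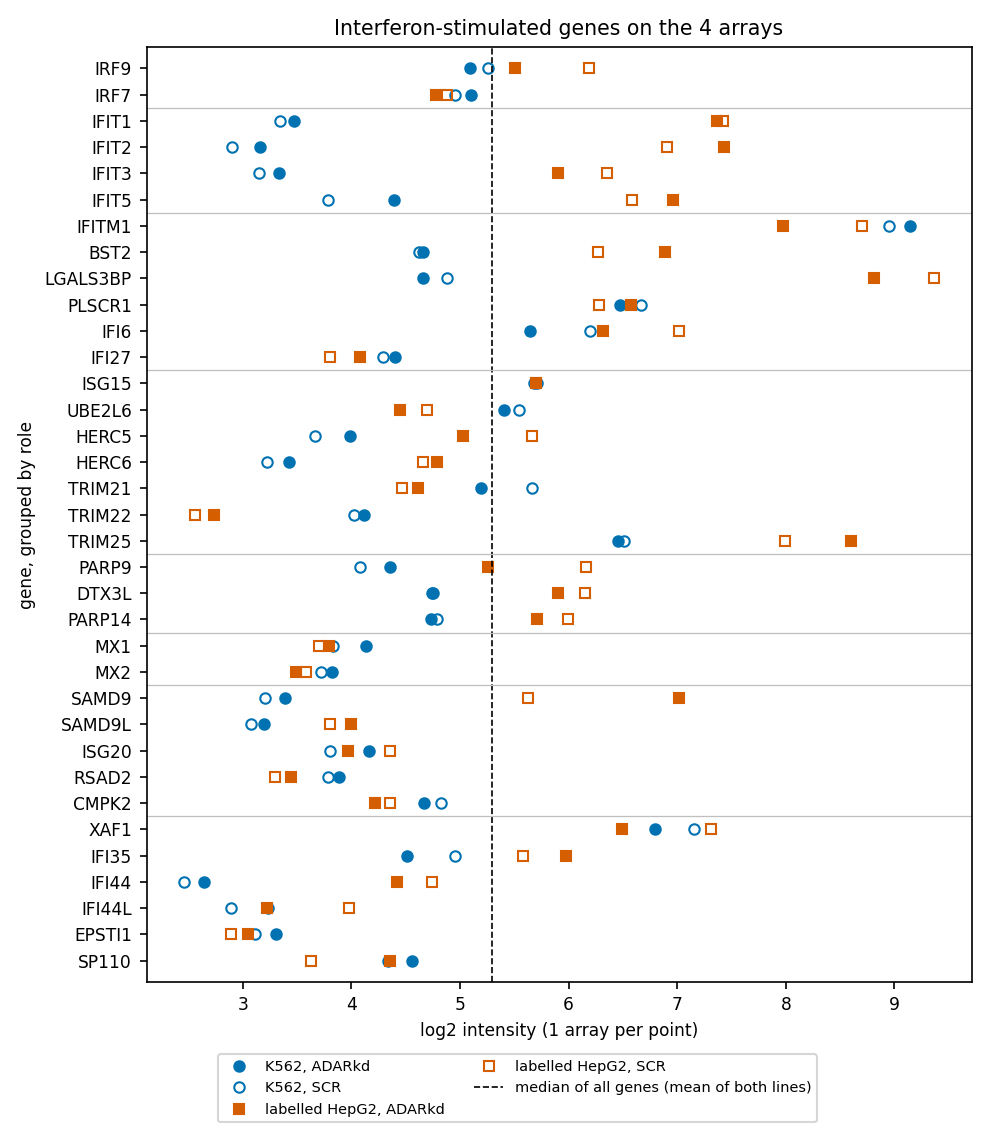
Log2 intensity of the 35 measured interferon-stimulated genes on each of the 4 arrays; K562 circles and labelled HepG2 squares, filled for ADARkd and open for SCR, with the dashed line at the median of all genes. The IFIT genes, LGALS3BP and SAMD9 lie left of the line in K562 and right of it on the arrays labelled HepG2, and MX1, MX2 and RSAD2 lie left of it on all 4.

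The IFIT family, which binds viral RNA and blocks its translation, was lower in K562 as a whole. All 4 members were kept on the arrays labelled HepG2, none was kept in K562, and all 4 were called lower in K562. IFIT1 stood at 3.47 in ADARkd and 3.34 in SCR in K562, against 7.37 in ADARkd and 7.42 in SCR on the arrays labelled HepG2. IFIT2, which also promotes apoptosis, stood at 3.16 and 2.90 in K562 (ADARkd, then SCR), against 7.43 and 6.91 on the arrays labelled HepG2. The K562 minus labelled HepG2 difference was -3.99 ± 0.20 for IFIT1 (limma SE from 2 arrays of each line, adjusted p = 8.54e-07) and -4.14 ± 0.19 for IFIT2 (limma adjusted p = 7.06e-07). IFIT3, which stabilises IFIT1, had 3.34 in ADARkd and 3.15 in SCR in K562, against 5.90 in ADARkd and 6.35 in SCR on the arrays labelled HepG2. IFIT5, a binder of RNA with a 5′ phosphate, had 4.39 in ADARkd and 3.78 in SCR in K562, against 6.96 in ADARkd and 6.59 in SCR on the arrays labelled HepG2. The differences of IFIT3 and IFIT5 were -2.89 ± 0.21 and -2.69 ± 0.20 (limma adjusted p = 8.46e-06 and 8.91e-06).

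Proteins of membranes and the cell surface differed from each other. LGALS3BP, a secreted glycoprotein, had the largest difference of all members: 4.66 in ADARkd and 4.88 in SCR in K562, against 8.81 in ADARkd and 9.36 in SCR on the arrays labelled HepG2 (-4.32 ± 0.22, limma adjusted p = 9.02e-07). BST2 (tetherin), which holds budding virions on the cell, stood at 4.66 and 4.62 in K562 (ADARkd, then SCR), against 6.88 and 6.27 on the arrays labelled HepG2. Its difference was -1.94 ± 0.22 (limma adjusted p = 0.000142). IFITM1, which blocks viral fusion at the plasma membrane, was kept in both lines, at 9.14 in ADARkd and 8.95 in SCR in K562, against 7.97 in ADARkd and 8.70 in SCR on the arrays labelled HepG2. PLSCR1, a phospholipid scramblase, had 6.47 in ADARkd and 6.67 in SCR in K562, against 6.58 in ADARkd and 6.28 in SCR on the arrays labelled HepG2. IFITM1 was higher in K562 on both pairs of arrays and PLSCR1 overlapped, and neither was called (limma adjusted p = 0.0577 and 0.639). IFITM1 is close in sequence to IFITM2 and IFITM3, so that part of its signal may be theirs and its value is uncertain; the same holds among the IFIT genes and between MX1 and MX2. IFI6, a small protein of intracellular membranes, stood at 5.64 in ADARkd and 6.19 in SCR in K562, against 6.31 in ADARkd and 7.02 in SCR on the arrays labelled HepG2. It was lower in K562 by less than 2-fold (-0.75 ± 0.21, limma adjusted p = 0.0245). IFI27, of the same protein family, was under the filter level in both lines.

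ISG15 is a ubiquitin-like protein that UBE2L6 and the ligase HERC5 attach to newly made proteins. ISG15 itself stood at 5.68 in ADARkd and 5.70 in SCR in K562, against 5.70 in ADARkd and 5.70 in SCR on the arrays labelled HepG2. All 4 values lay close together, and the line difference was -0.01 ± 0.20 (limma adjusted p = 0.975). UBE2L6 was kept in K562 alone, at 5.41 in ADARkd and 5.54 in SCR, against 4.44 in ADARkd and 4.70 in SCR on the arrays labelled HepG2 (0.90 ± 0.19, limma adjusted p = 0.00603, under 2-fold). HERC5 went the other way, at 3.98 in ADARkd and 3.67 in SCR in K562, against 5.03 in ADARkd and 5.66 in SCR on the arrays labelled HepG2 (-1.52 ± 0.24, limma adjusted p = 0.00123). The enzymes of the pathway were thus not uniformly higher in either line. HERC6, its neighbour in the family, was called lower in K562 (-1.40 ± 0.18, limma adjusted p = 0.000282) but under the filter level in both lines.

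TRIM proteins are ubiquitin ligases. TRIM25, which acts in RIG-I signalling, stood at 6.45 in ADARkd and 6.51 in SCR in K562, against 8.603 in ADARkd and 7.996 in SCR on the arrays labelled HepG2. It was the only called member kept in both lines (-1.82 ± 0.24, limma adjusted p = 0.000337). TRIM21, a cytosolic antibody receptor, had 5.20 in ADARkd and 5.67 in SCR in K562, against 4.62 in ADARkd and 4.47 in SCR on the arrays labelled HepG2; it was higher in K562 by less than 2-fold (0.89 ± 0.21, limma adjusted p = 0.0122). TRIM22, an antiviral relative, stood at 4.12 in ADARkd and 4.02 in SCR in K562, against 2.74 in ADARkd and 2.56 in SCR on the arrays labelled HepG2 (1.42 ± 0.17, limma adjusted p = 0.00022). All 4 of its values were under the filter level.

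PARP9, a member of the PARP family, and DTX3L, a ubiquitin ligase, work as a complex. The 2 genes are transcribed in opposite directions, and the ISRE at chr3:122564332-122564341 lies in the windows of both. PARP9 stood at 4.36 in ADARkd and 4.08 in SCR in K562, against 5.25 in ADARkd and 6.16 in SCR on the arrays labelled HepG2. DTX3L stood at 4.75 in ADARkd and 4.75 in SCR in K562, against 5.90 in ADARkd and 6.15 in SCR on the arrays labelled HepG2. PARP14, which transfers ADP-ribose and lies on the same chromosome, had 4.74 in ADARkd and 4.79 in SCR in K562, against 5.71 in ADARkd and 5.99 in SCR on the arrays labelled HepG2. All 3 were called lower in K562, at -1.49 ± 0.27, -1.28 ± 0.20 and -1.09 ± 0.20 (limma adjusted p = 0.00276, 0.0011 and 0.00266). None of the 3 reached 2-fold with the offset of 16 (-0.99, -0.92 and -0.77).

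SAMD9, a restriction factor of poxviruses, stood at 3.38 in ADARkd and 3.21 in SCR in K562, against 7.01 in ADARkd and 5.63 in SCR on the arrays labelled HepG2 (-3.02 ± 0.27, limma adjusted p = 3.17e-05). IFI35, which binds the regulator NMI, had 4.51 in ADARkd and 4.96 in SCR in K562, against 5.98 in ADARkd and 5.58 in SCR on the arrays labelled HepG2 (-1.04 ± 0.24, limma adjusted p = 0.00918). IRF9, a DNA-binding factor of the interferon response, stood at 5.09 in ADARkd and 5.26 in SCR in K562, against 5.50 in ADARkd and 6.19 in SCR on the arrays labelled HepG2. All 3 were kept on the arrays labelled HepG2 alone, and the IRF9 difference was under 2-fold (-0.67 ± 0.21, limma adjusted p = 0.0422). XAF1, which counters the apoptosis inhibitor XIAP, was kept in both lines, with 6.80 in ADARkd and 7.15 in SCR in K562, against 6.49 in ADARkd and 7.31 in SCR on the arrays labelled HepG2. The lines overlapped for XAF1 (0.08 ± 0.22, limma adjusted p = 0.798).

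The remaining 14 members were under the filter level in both lines, between 2.46 and 5.10 on all arrays. They include genes commonly used to read an interferon response: the GTPases MX1 and MX2, which trap viral particles, RSAD2 (viperin), which makes a chain-terminating nucleotide, IFI44L and IFI27. MX1 stood at 4.14 in ADARkd and 3.83 in SCR in K562, against 3.79 in ADARkd and 3.70 in SCR on the arrays labelled HepG2. RSAD2 and its neighbour CMPK2, a nucleotide kinase, ranged from 3.30 to 4.83. IRF7, the factor that amplifies interferon production, ranged from 4.78 to 5.10. The others were the RNA exonuclease ISG20, SAMD9L, EPSTI1, SP110, IFI44, HERC6 and TRIM22. IFI44 was also called lower in K562 (-2.03 ± 0.19, limma adjusted p = 4.2e-05), between values under the filter level on both sides.

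**Figure D3:**
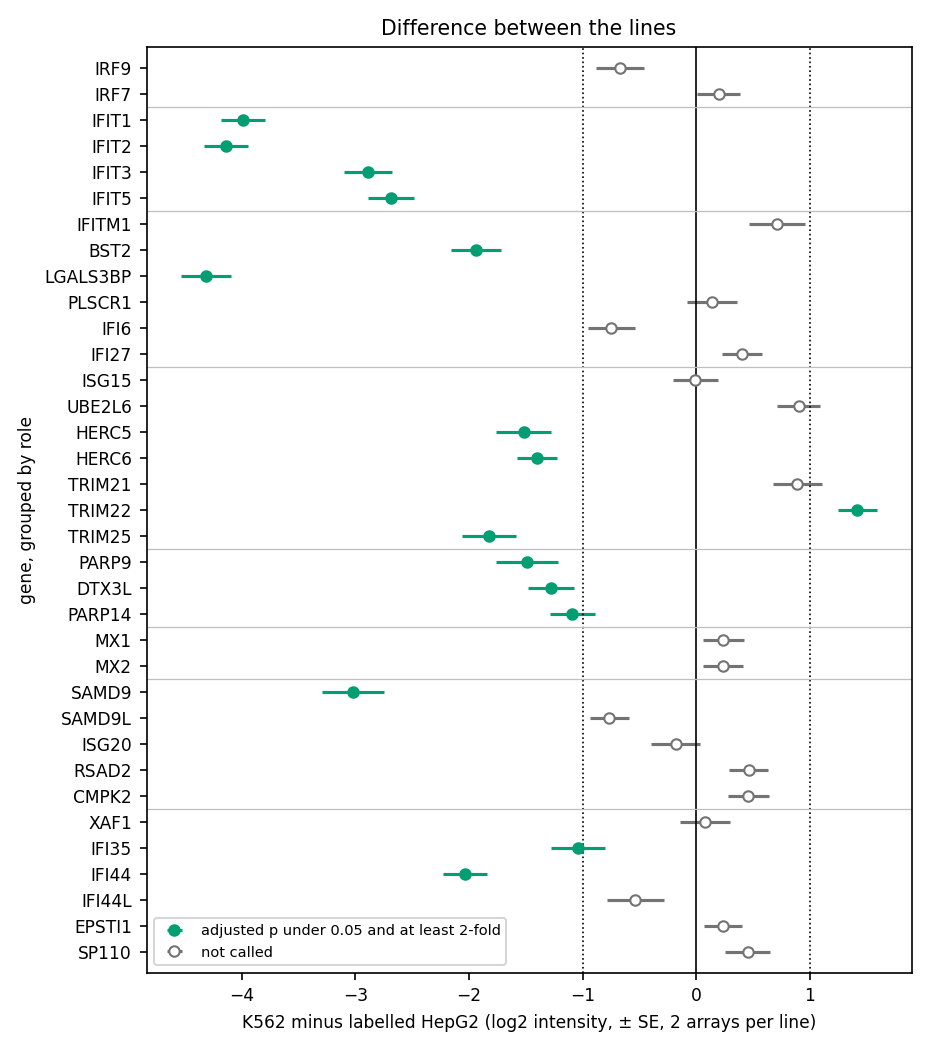
K562 minus labelled HepG2 (log2 intensity, ± SE from limma, 2 arrays per line) for each of the 35 measured members, grouped by role; filled green points passed an adjusted p under 0.05 and 2-fold (dotted lines). The 15 filled points on the left include all 4 IFIT genes and all 3 of PARP9, DTX3L and PARP14, and TRIM22 is the single filled point on the right.

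The second comparison asked whether the members differed where ADAR was lower. On the arrays labelled HepG2 a larger share of members than of all kept genes was lower in ADARkd. The share that was higher was near that of all kept genes. Of 19 kept members, 6 were at least 1.5-fold lower (31.6%), against 5.73% of the 7116 kept genes, and 3 were at least 1.5-fold higher (15.8%), against 12.4%. At 2-fold 0 of the 19 were lower and 1 higher. A stricter filter, the 75th percentile of all genes, kept only 5 members, of which 1 was lower and 1 higher. Shares of all genes at these settings are not given here. The median difference was -0.25 over the kept members and 0.11 over all kept genes; after quantile normalization that of all genes was 0.00 and the members' -0.30, and after loess 0.00 and -0.24. Over all 35 measured members it was -0.05, and 0.01 over all genes.

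SAMD9 was the member farthest up, 2.61-fold higher in ADARkd on the arrays labelled HepG2 (log2 difference 1.39). TRIM25 (0.61) and BST2 (0.61) were 1.52-fold and 1.53-fold higher, just past the fold. TRIM25 was not past it after quantile normalization (0.45) or loess (0.47), nor BST2 after quantile normalization (0.52), and with the offset of 16 neither was (0.58 and 0.52). PARP9 was farthest down, at 1.88-fold lower (-0.91), with its ADARkd value under the filter level. XAF1 (-0.82), IFITM1 (-0.73), IFI6 (-0.71), IRF9 (-0.68) and HERC5 (-0.64) followed, at 1.76-fold to 1.55-fold lower. The ADARkd value of HERC5 was also under the filter level; HERC5 was not past 1.5-fold after loess (-0.58) or with the offset of 16 (-0.46), nor IRF9 with the offset (-0.53). DTX3L, the partner of PARP9, differed by -0.25 and PARP14 by -0.28. Within the IFIT family the differences ran both ways: IFIT2 0.52, IFIT5 0.37, IFIT1 -0.05 and IFIT3 -0.45. LGALS3BP differed by -0.56, 1.47-fold lower, and was past 1.5-fold after quantile normalization (-0.71) and loess (-0.67). IFI35 (0.39), PLSCR1 (0.29) and ISG15 (0.00) completed the kept members.

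The promoters of the 4 kept members with the largest differences are printed here as 300-base windows of GRCh38.p14, read 5′ to 3′ on the gene's strand with any ISRE in capitals. SAMD9 lies at chr7:93117930-93118229 on the minus strand, PARP9 at chr3:122564251-122564550 on the minus strand, XAF1 at chr17:6755796-6756095 on the plus strand and IFITM1 at chr11:313790-314089 on the plus strand. The windows of SAMD9 and PARP9 hold 1 match each and that of IFITM1 2, and the printed window of XAF1, 1 of 2 for that gene, holds none.
SAMD9: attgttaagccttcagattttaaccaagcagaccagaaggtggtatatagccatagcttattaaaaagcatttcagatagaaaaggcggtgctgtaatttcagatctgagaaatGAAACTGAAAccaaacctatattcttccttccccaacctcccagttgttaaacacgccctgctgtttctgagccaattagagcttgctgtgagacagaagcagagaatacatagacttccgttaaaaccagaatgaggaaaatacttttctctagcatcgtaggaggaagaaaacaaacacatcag
PARP9: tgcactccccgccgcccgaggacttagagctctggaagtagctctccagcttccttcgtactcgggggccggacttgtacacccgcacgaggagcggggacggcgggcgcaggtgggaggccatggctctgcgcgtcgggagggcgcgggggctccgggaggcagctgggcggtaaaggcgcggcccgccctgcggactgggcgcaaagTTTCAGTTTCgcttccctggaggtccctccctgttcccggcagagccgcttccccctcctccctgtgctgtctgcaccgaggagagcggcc
XAF1: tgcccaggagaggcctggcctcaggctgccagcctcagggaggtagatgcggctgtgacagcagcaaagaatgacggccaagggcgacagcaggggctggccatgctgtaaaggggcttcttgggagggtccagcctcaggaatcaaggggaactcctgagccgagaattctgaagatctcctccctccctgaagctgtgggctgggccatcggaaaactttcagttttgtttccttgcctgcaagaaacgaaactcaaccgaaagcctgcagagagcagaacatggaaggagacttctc
IFITM1: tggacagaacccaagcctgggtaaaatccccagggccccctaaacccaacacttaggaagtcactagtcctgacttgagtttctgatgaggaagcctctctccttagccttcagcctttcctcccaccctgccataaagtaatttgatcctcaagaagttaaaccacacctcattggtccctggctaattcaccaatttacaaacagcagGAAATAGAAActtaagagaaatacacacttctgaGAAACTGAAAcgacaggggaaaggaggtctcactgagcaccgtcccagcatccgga

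The motif was present both in the member farthest up and in the member farthest down. Over the 22 measured members that held it, the difference on the arrays labelled HepG2 ran from -0.91 to 1.39 with a median of -0.15. Over the 9 with a window and no match it ran from -0.82 to 0.73 with a median of 0.13.

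Other genes moved on the same arrays. Of 7 kept fibroblast and stromal markers 4 were at least 1.5-fold lower in ADARkd and 2 higher, with LUM at 0.78 and DCN at 0.64, against COL3A1 at -2.42, FN1 at -1.80, FAP at -1.66 and COL1A1 at -1.12; the summed intensity of the list was 11.12 in ADARkd and 11.12 in SCR on the log2 scale. The hepatocyte list summed to 10.81 in ADARkd and 11.10 in SCR, most of it from CPS1. Lymphocyte and plasmacytoid dendritic markers were all under the filter level there. The part of these shifts in the members' differences was not tested.

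In K562 the members lay closer to 0; the difference from the arrays labelled HepG2 was not tested. None of 8 kept members was at least 1.5-fold higher or lower, against 0.267% and 0.759% of the 7116 kept genes. The kept members' median was -0.17 and that of all kept genes -0.07. IFI6 was the lowest (-0.55), followed by TRIM21 (-0.47), XAF1 (-0.35), PLSCR1 (-0.20) and UBE2L6 (-0.14). TRIM25 (-0.06) and ISG15 (-0.02) lay near 0, and IFITM1 was the only kept member above it (0.19).

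The K562 differences moved with level. Among all genes under the filter level 74.8% were higher in ADARkd, with a median of 0.13, and among kept genes 33.3% were. The members did likewise: 22 of 27 under the filter level were higher in ADARkd, with a median of 0.15, against 1 of 8 kept ones. IFIT5 (0.61) was the only member past 1.5-fold, 1.52-fold higher in ADARkd, and it lay under the filter level. Without the filter the median over all 35 members was 0.11, opposite in sign to that of the kept ones.

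**Figure D4:**
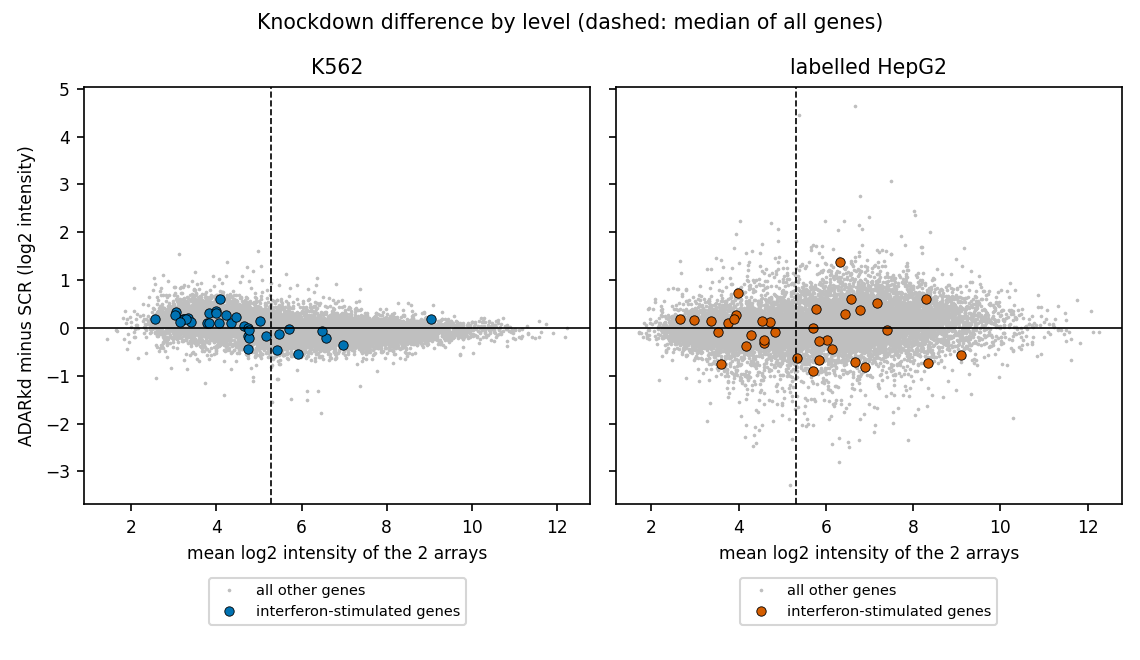
Knockdown difference (ADARkd minus SCR, log2 intensity) against the mean log2 intensity of a line's 2 arrays, with all other genes in grey, the 35 measured members in colour and the median of all genes dashed. In K562 both the grey cloud and the members lie mostly above 0 on the left and mostly under it on the right of the dashed line, and the labelled HepG2 differences spread more widely at every level.

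**Figure D5:**
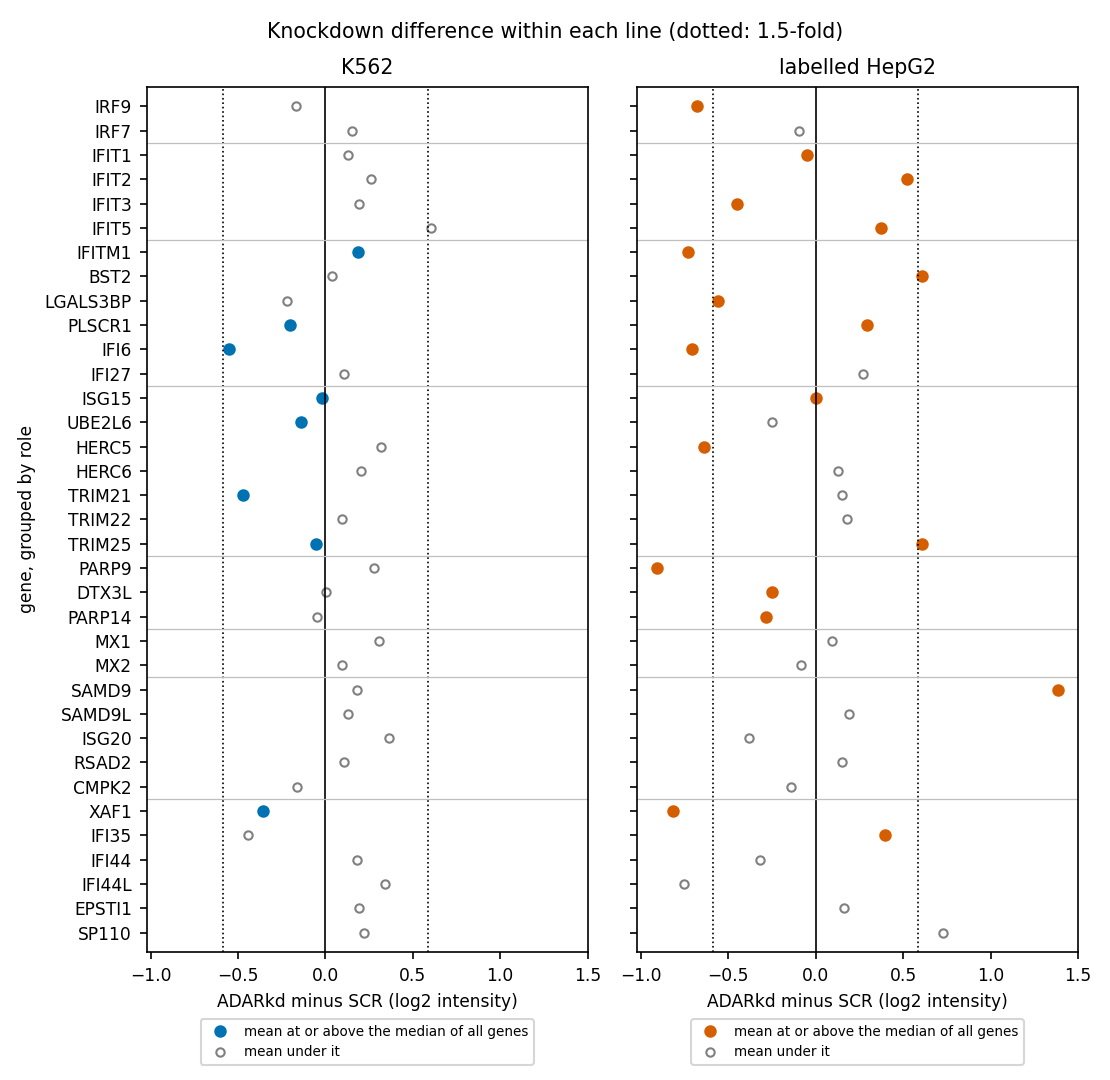
Knockdown difference (ADARkd minus SCR, log2 intensity) of each of the 35 measured members within K562 and within the arrays labelled HepG2; filled points were kept in that line, open grey points were under the median of all genes, and dotted lines mark 1.5-fold. No filled K562 point lies past the lines, while SAMD9 lies far to the right and PARP9 farthest to the left among filled points labelled HepG2.

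An effect shared by both lines could be tested, since arm and line were terms of the same limma fit. None of the 35 members passed an adjusted p under 0.05, and neither did any of the 14232 genes (0%). ADAR, the siRNA target, was among those not called (-1.45 ± 0.22, SE, limma unadjusted p = 9.56e-05). The test thus missed an intended change, so it cannot show that the members lack a shared effect. At an unadjusted p under 0.05 there were 5 members (14.3%), against 3.36% of all genes. IFI6 was lower in ADARkd (-0.63 ± 0.21), as was XAF1 (-0.59 ± 0.22; SE, limma unadjusted p = 0.0144 and 0.0273, adjusted p = 1 for both). SAMD9 (0.78 ± 0.27), IFIT5 (0.49 ± 0.20) and SP110 (0.47 ± 0.20) were higher. IFI6 and XAF1 were lower in ADARkd in both lines and were kept in both, whereas SAMD9 and IFIT5 were kept on the arrays labelled HepG2 alone and SP110 in neither line.

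The genes upstream of the members were examined next. All 9 measured interferon genes, among them IFNB1 and IFNG, lay under the filter level in both lines, between 2.28 and 4.79. K562 is known to lack the type I interferon gene cluster. Of 18 measured receptor and signalling genes, 11 were kept in K562 and 12 on the arrays labelled HepG2. On the arrays labelled HepG2, 2 of the 12 were at least 1.5-fold higher in ADARkd and 0 lower, where 12.4% and 5.73% of all kept genes were. The higher ones were IFNGR1, a chain of the interferon gamma receptor, at 7.65 in ADARkd and 6.48 in SCR, and IFNAR2, a chain of the type I receptor, at 6.85 in ADARkd and 6.10 in SCR. The phosphatase PTPN2 (0.58) and the other type I receptor chain, IFNAR1 (0.44), came next. In K562 none was past 1.5-fold, with IFNAR2 at -0.37, the kinase JAK1 at -0.34, IFNGR1 at -0.19 and PTPN2 at 0.18. Between the lines SOCS3, a feedback inhibitor, was called lower in K562 (-1.10 ± 0.21, limma adjusted p = 0.0041), and no other gene of the 18 was called. Of all genes, 9.26% were called lower in K562 and 6.84% higher.

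Interferon-induced genes outside the 41 were also counted, leaving out ADAR. Of 43 measured, 16 were kept in K562 and 20 on the arrays labelled HepG2. On the arrays labelled HepG2, 3 of the 20 were at least 1.5-fold higher in ADARkd and 2 lower, near the 12.4% and 5.73% of all kept genes, and the median of 0.13 was near their 0.11. The DNA sensor IFI16 (0.89) and the RNA-degrading PNPT1 (0.76) were higher, and the chemokine CCL5 (-1.16) and the helicase MOV10 (-0.76) lower. OAS3, an enzyme that activates RNase L, was the other one (0.70). In K562 the single kept gene past 1.5-fold was HLA-E, a ligand of natural killer receptors, at 5.80 in ADARkd and 6.42 in SCR; TRIM38 (-0.31), the dsRNA-activated kinase EIF2AK2 (-0.29) and MOV10 (-0.29) came next among kept genes. RTP4, a chaperone of receptors, was 1.62-fold higher in ADARkd in K562 (0.69) but under the filter level. Between the lines 8 of the 43 were called lower in K562, against 9.26% of all genes. Among the 8 were OAS1 (-3.71 ± 0.20, limma adjusted p = 1.17e-06) and OASL (-2.27 ± 0.19), both relatives of OAS3, and IFI16 (-3.88 ± 0.22). Of the 8, only IFI30 was kept in K562, and the folds of the others are uncertain because of low signal. NMI and APOL1 were the only 2 of the 43 called higher in K562 (1.97 ± 0.32 and 1.25 ± 0.18), against 6.84% of all genes. NMI was under the filter level on the arrays labelled HepG2, and APOL1 was under it in both lines. OAS1, OASL, OAS3, RTP4, IFI30, NMI and APOL1 were chosen after their values were seen.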

How the data were processed

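TRIzol-purified total RNA was biotin-labelled with an Affymetrix whole-transcript kit and put on arrays, per the labels' protocols. The authors deposited 1 linear intensity for each transcript cluster; the submitters' processing notes name RMA and hg18, and further steps are not given in the sources used here. Median intensities were 37.0 (ADARkd) and 36.7 (SCR) in K562, and 36.1 (ADARkd) and 36.7 (SCR) on the arrays labelled HepG2. No background signal per probe was analysed here, and precision is limited by there being 4 arrays.

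Of 17881 clusters, 14432 had a single gene symbol in the platform annotation, 2408 several and 1041 none. The brightest cluster per gene was used (197 genes had several), and log2 was taken without an offset. Limma 3.58.1 in R 4.3.3 was fitted to all 14232 genes with no filter (two-sided, Benjamini-Hochberg adjusted, lmFit and eBayes using the intensity trend), with line and arm as terms; its self-test on simulated data used the same number of genes. Within a line, 1.5-fold (0.585 on the log2 scale) served as the threshold. Members kept in a line are given with every array's value, and up to 4 kept genes of each pathway list with the largest difference are named. Alternatives were quantile and loess normalization, an offset of 16, the mean of all clusters, other filters, a 2-fold threshold, no intensity trend and single arms.

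Sequences are RefSeq's; their build is not that of the arrays, and they were matched by symbol. No protein sequences were printed. The members and lists were chosen with earlier results of these data known. Figures were drawn with matplotlib 3.10.9.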

Additional observations from a re-analysis of the deposited data

Results flagged for a closer look

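Members kept in both lines whose knockdown differences pointed in opposite directions were IFITM1, TRIM25, PLSCR1 and ISG15. The difference between the lines was not tested, since it leaves no residual degrees of freedom, and each direction comes from 1 array against 1.

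IFITM1 differed by 0.19 in K562 and by -0.73 on the arrays labelled HepG2, so the labelled HepG2 minus K562 gap was -0.92. TRIM25 differed by -0.06 and 0.61, a gap of 0.66, but after quantile normalization it differed by 0.05 in K562 and 0.45 on the arrays labelled HepG2, and after loess by 0.03 and 0.47, so the directions were no longer opposite. PLSCR1 differed by -0.20 and 0.29, a gap of 0.49. For ISG15 the gap was 0.022, from -0.02 and 0.00, which is near 0 in both lines; its signs changed with the scaling, at 0.02 and -0.03 after quantile normalization and 0.00 and -0.02 after loess. IFITM1 and PLSCR1 kept opposite directions under both scalings.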

How the results depend on the processing

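On the arrays labelled HepG2 the count of members at least 1.5-fold higher was 3 of 19 kept. It was 1 after quantile normalization, with an offset of 16 and at 2-fold, and 1 of the 5 kept with the filter at the 75th percentile. The count of lower members, 6 of 19, was 1 of 5 with the stricter filter and 0 at 2-fold. It was 7, 6 and 4 after quantile normalization, after loess and with the offset. Shares of all kept genes at these settings are not given here. The median of all kept genes moved from 0.11 to 0.00 after either normalization, so the main shares do not apply to these counts. In K562 the count of higher members was 1 without the filter, and the median over members reversed to 0.11. The other filters and the 2-fold threshold change by construction which genes count; for the scalings the cause was not tested. Between the lines the offset left 8 members called lower in K562 and 0 higher, against 15 and 1. Of all 14232 genes it left 1598 called in either direction, against 2291. Among genes kept in both lines, which hold 6 members and where 875 of 6204 genes were called against 2291 of 14232, 1 was called lower and 0 higher, and the members' median was 0.0344, reversed from -0.67. Quantile normalization and the mean of all clusters left 15 lower and loess 16. Of all 14232 genes, 2270, 2280 and 2265 were then called in either direction. The SCR arrays alone and the ADARkd arrays alone gave negative medians as well. In the shared effect neither a member nor any other gene, ADAR included, was called in any of the 7 fits. In the fits to all 35 members, 3 to 5 had a limma unadjusted p under 0.05, as had 427 to 483 of the 14232 genes. In the fit to genes kept in both lines 2 of 6 members had one, as had 179 of 6204 genes.

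The labels give no replicate numbers to block on. The only pairing was by line, a term of the shared effect, which sets the arms of each line against each other. With 1 array per group, no difference between arms inside a line has a replicate. Low signal limits the K562 levels most, where 27 of 35 members lay under the filter level.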

Other observations

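Interferon-induced genes of antigen presentation differed in part between the lines. The immunoproteasome subunit PSMB8 stood at 3.85 in ADARkd and 3.84 in SCR in K562, against 6.48 in ADARkd and 6.35 in SCR on the arrays labelled HepG2 (-2.57 ± 0.19, limma adjusted p = 9.21e-06). The peptide transporter TAP1 (-0.93 ± 0.21), B2M, the light chain of class I molecules (-0.89 ± 0.17), and HLA-E (-0.88 ± 0.23) were lower by less than 2-fold, with limma adjusted p = 0.00912, 0.00394 and 0.0202. The lysosomal reductase IFI30, of class II presentation, differed by -2.40 ± 0.21 (limma adjusted p = 2.5e-05). The transporter subunit TAP2 (-0.01), the class I gene HLA-F (-0.07) and the proteasome subunit PSMB10 (0.50) did not pass the test. HLA-F and PSMB10 were under the filter level in both lines and PSMB8 was under it in K562, so low signal limits their comparisons. The genes named here were chosen after their values were seen.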
